A study of Homo sapiens with 4 samples.

Results

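The potassium channel genes of HEK293T cells were followed between the nucleus and the cytoplasm. They were taken as the protein-coding genes whose symbol starts with KCN, followed by further letters and a digit, and they numbered 94 of the 51740 rows of the deposited table. Of these, 68 were tested for a difference between the fractions, 18 had reads but no adjusted p, and 8 were listed at 0. HEK293T cells derive from human embryonic kidney and express the large T antigen of SV40. All cells were wild type and had been crosslinked with formaldehyde before they were lysed with a mild detergent, so that the cytoplasm could be separated from the nuclei. There were 4 libraries, 2 nuclear and 2 cytoplasmic, described as biological replicates of 1 line, each from 400 ng of ribodepleted RNA sequenced from both ends for 100 nt.

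Potassium channels let potassium ions pass through the membrane down their gradient and so set the resting potential and end electrical impulses. The pore is built by voltage-gated subunits (KCNA to KCND, KCNH and KCNQ, with silent partners from KCNF, KCNG, KCNS and KCNV), by subunits that respond to calcium or sodium (KCNM, KCNN and KCNT), by inward rectifiers (KCNJ) or by 2-pore leak channels (KCNK). Auxiliary subunits (KCNAB, KCNE, KCNIP and KCNMB) alter the gating or trafficking of the pore. HEK293 cells have small potassium currents of their own, which is one reason for their wide use as a host for cloned channels.

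Reads were counted over exons and introns together, so unspliced RNA adds to a gene's value. Log2 fold changes are cytoplasmic over nuclear, so negative values mark genes with more of their signal in the nucleus. All libraries started from equal masses of RNA, so the values are shares rather than amounts per cell, and fewer cells with a transcript cannot be told apart from fewer transcripts per cell. The reads of single libraries were recovered for 85 of the 86 members with reads, the exception being KCNQ5, whose reads were not sought because of its high mean. They came from the deposited mean and fold change, or from the mean alone for some members with few reads. Within each fraction the libraries are called deeper and shallower, since their replicate numbers are not known. Size factors were 1.34 and 1.19 for the nuclear and 0.853 and 0.755 for the cytoplasmic libraries. As a check of the fractions, the nuclear lncRNA MALAT1 had a log2 fold change of -3.47 and NEAT1 one of -3.09. Of 5 markers of HEK293T, all 5 had reads, with means from 63.1 for PAX2 to 18261 for VIM. Of 5 markers of other cell types, PTPRC, ALB, HBB and MYH7 were at means of at most 1.76, while COL1A1 was at 212.9.

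Most of the differences were on the nuclear side. Of the 68 tested members, 22 were called nuclear (higher in that fraction) and 5 cytoplasmic at a DESeq2 adjusted p of at most 0.01, and 41 did not pass. The cytoplasmic calls were 7.35% of the members, while 35.6% of the protein-coding and 25.9% of all tested genes were called in that direction. The nuclear calls were 32.4% of the members, beside 28.4% of the protein-coding and 26.5% of all tested genes. The median log2 fold change of the members was -1.18, against 0.11 for the 15336 protein-coding and -0.12 for all 23333 tested genes.

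The members had few reads, which limits what could be called. Their median mean normalized count was 24.8, against 582 for the protein-coding genes. Among the 39 members with a mean of at most 50 the median standard error (SE) was 1.24, and 6 were called, all nuclear. The 15336 protein-coding genes gave 5453 cytoplasmic and 4349 nuclear calls, of which 5298 and 4011 were of genes with a mean over 50. At lower means nuclear calls were thus the more frequent ones there too, so this direction is not particular to the members. Among the 29 with a mean over 50 the median SE was 0.24, and 5 were cytoplasmic (17.2%) and 16 nuclear (55.2%). Of the protein-coding genes with a mean over 50, 43.6% were cytoplasmic and 33% nuclear. The median of these 29 members was -0.74, against 0.22 for the 12138 protein-coding genes above that mean.

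The replicate libraries stood close together beside these differences. Over the 28 members with a mean over 50 and recovered reads, the nuclear libraries differed by a median of 10.8% and the cytoplasmic libraries by 14.5%. Of the 67 tested members with recovered reads, 46 had both nuclear libraries above both cytoplasmic ones, 10 had the reverse, and 11 overlapped. Over all 17610 tested genes with recovered reads, nearly all with a mean under 1000, the libraries were separate with the nuclear side higher for 46.2% and with the cytoplasmic side higher for 37%. All 26 called members with recovered reads were separate in the direction of their call. The reads were recovered from the same values that gave the calls, so this is not separate evidence for them.

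**Figure D1:**
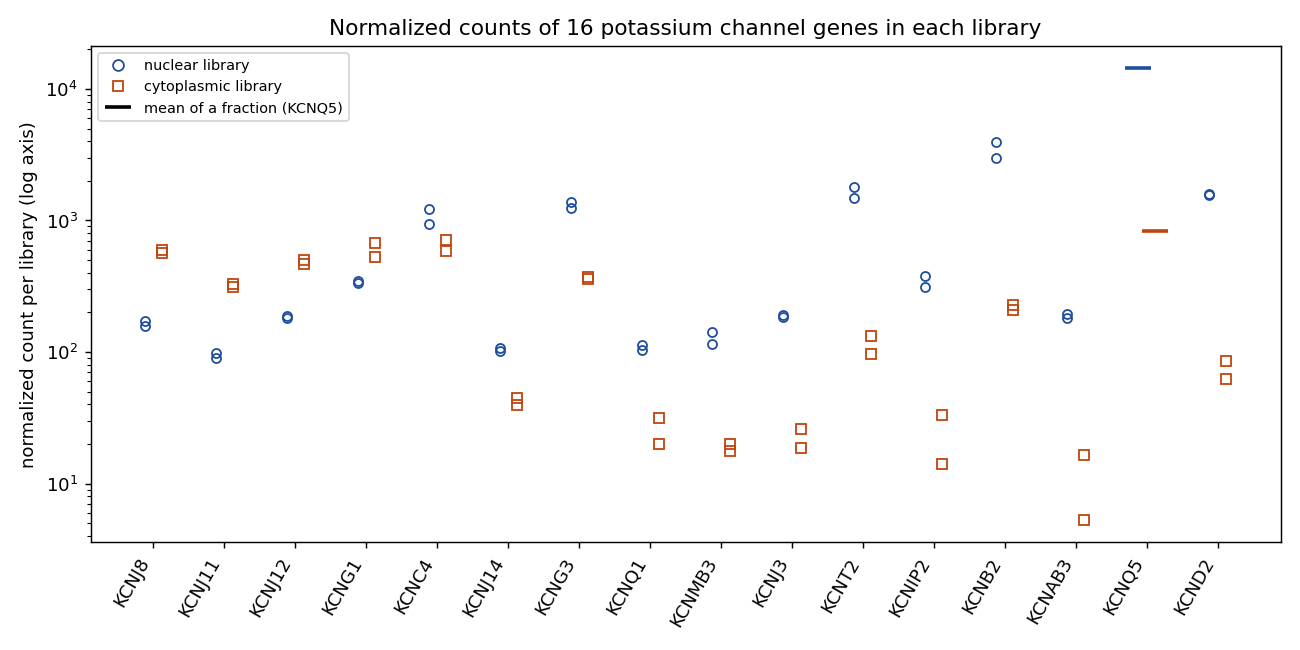
Normalized counts of 16 members named by rule (vertical, log axis) in the 2 nuclear (circles) and 2 cytoplasmic libraries (squares), ordered by fold change. KCNQ5 is drawn by the mean of each fraction, because its reads per library were not recovered. The other 15 were all called genes, and in none of them do the fractions overlap.

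The members on the cytoplasmic side were led by inward rectifiers. KCNJ8 (ENSG00000121361, chr12:21764955-21775600 of hg38, minus strand) and KCNJ11 (ENSG00000187486, chr11:17365172-17389331, minus strand) form the pore of ATP-sensitive channels, which couple the membrane potential to metabolism. KCNJ8 had normalized counts of 158 and 172 in the nuclear and 563 and 591 in the cytoplasmic libraries. Its level was 3.50-fold higher in the cytoplasmic fraction (log2 fold change 1.81, SE 0.19, DESeq2 adjusted p 6.53e-21). For KCNJ11 the normalized counts were 89.5 and 97.5 in the nuclear and 313 and 326 in the cytoplasmic libraries. This was a 3.42-fold difference (log2 1.77, SE 0.24, DESeq2 adjusted p 3.03e-13). In both genes every cytoplasmic library was at more than 3 times every nuclear one.

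KCNJ12 (ENSG00000184185, chr17:21376357-21419870, plus strand) encodes a strong inward rectifier of the heart and skeletal muscle. It had normalized counts of 180 and 189 in the nuclear and 504 and 464 in the cytoplasmic libraries, a 2.63-fold difference (log2 1.39, SE 0.19, DESeq2 adjusted p 2.93e-12). This value is uncertain, because KCNJ18, a near copy on the same chromosome, shares most of its sequence. The coding sequences are both 1299 bases long and differ at 13 bases (99% identity), and the longest identical stretch of 293 bases exceeds the read length. The file listed KCNJ18 with 2 and 1 nuclear reads and 1 and 1 cytoplasmic reads. How reads that fit both genes were treated is not stated for these libraries. Part of the KCNJ12 count may belong to KCNJ18, or reads that fit both genes may be missing from both counts. The stretch from coding base 235 to 354 is shown to illustrate how little separates them, with the 4 differing bases in capitals (hg38, plus strand, chr17:21415577-21415696 for KCNJ12 and chr17:21703021-21703140 for KCNJ18).
KCNJ12: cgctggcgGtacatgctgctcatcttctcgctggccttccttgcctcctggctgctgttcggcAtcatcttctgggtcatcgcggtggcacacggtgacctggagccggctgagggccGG
KCNJ18: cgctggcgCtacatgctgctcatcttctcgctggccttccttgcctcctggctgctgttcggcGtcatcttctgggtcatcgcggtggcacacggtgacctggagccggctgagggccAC

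Another cytoplasmic call was smaller. KCNG1 (chr20:51003656-51023107, minus strand) encodes a silent subunit that modifies KCNB channels. Its normalized counts were 337 and 345 in the nuclear and 674 and 525 in the cytoplasmic libraries, a 1.76-fold difference (log2 0.82, SE 0.18, DESeq2 adjusted p 2.25e-05). This call depended on the scale between the fractions. With equal library totals, which lower every log2 fold change by 0.66, KCNG1 fell to 0.15 (adjusted p 0.485 from the DESeq2 standard errors), whereas KCNJ8, KCNJ11 and KCNJ12 kept their call. The same scale brought 9 members without a DESeq2 call past the threshold toward the nucleus, the direction in which lowering every value adds calls. Over all 23333 tested genes it raised the nuclear calls from 6175 to 8930. The 9 members were KCNAB1, KCNC1, KCND3, KCNH8, KCNIP3, KCNJ4, KCNK13, KCNMB4 and KCNS3, with adjusted p from 1.42e-06 for KCNC1 to 0.00951 for KCNK13.

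The highest mean of all members was that of a KCNQ gene. KCNQ5 (ENSG00000185760, chr6:72621792-73198853, plus strand), a subunit of the M-current that restrains repetitive firing of neurons, had a mean of 7564. Its fraction means were 14299 in the nucleus and 829 in the cytoplasm, 17.2-fold higher in the nucleus (log2 -4.11, SE 0.12, DESeq2 adjusted p 4.31e-261). This gene alone held 48.98% of the nuclear normalized counts of all members and 10.9% of their cytoplasmic ones. Counts are not divided by gene length here, so this does not rank its transcripts above those of shorter genes. Without KCNQ5 the members held 0.0821% of the nuclear and 0.0237% of the cytoplasmic normalized counts.

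KCNQ1 (chr11:2444654-2849105, plus strand), which carries a slow repolarizing current of the heart, had normalized counts of 113 and 104 in the nuclear and 31.7 and 19.9 in the cytoplasmic libraries. The log2 fold change was -2.07 (SE 0.42, DESeq2 adjusted p 2.77e-06). KCNQ3, another subunit of the M-current, had 30 and 26 reads in the nuclear and 0 and 3 in the cytoplasmic libraries. From these reads its nuclear level was 11.9-fold the cytoplasmic one, with a counting interval of 3.85 to 59.2 (exact, 95%), and the DESeq2 adjusted p was 0.00532.

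**Figure D2:**
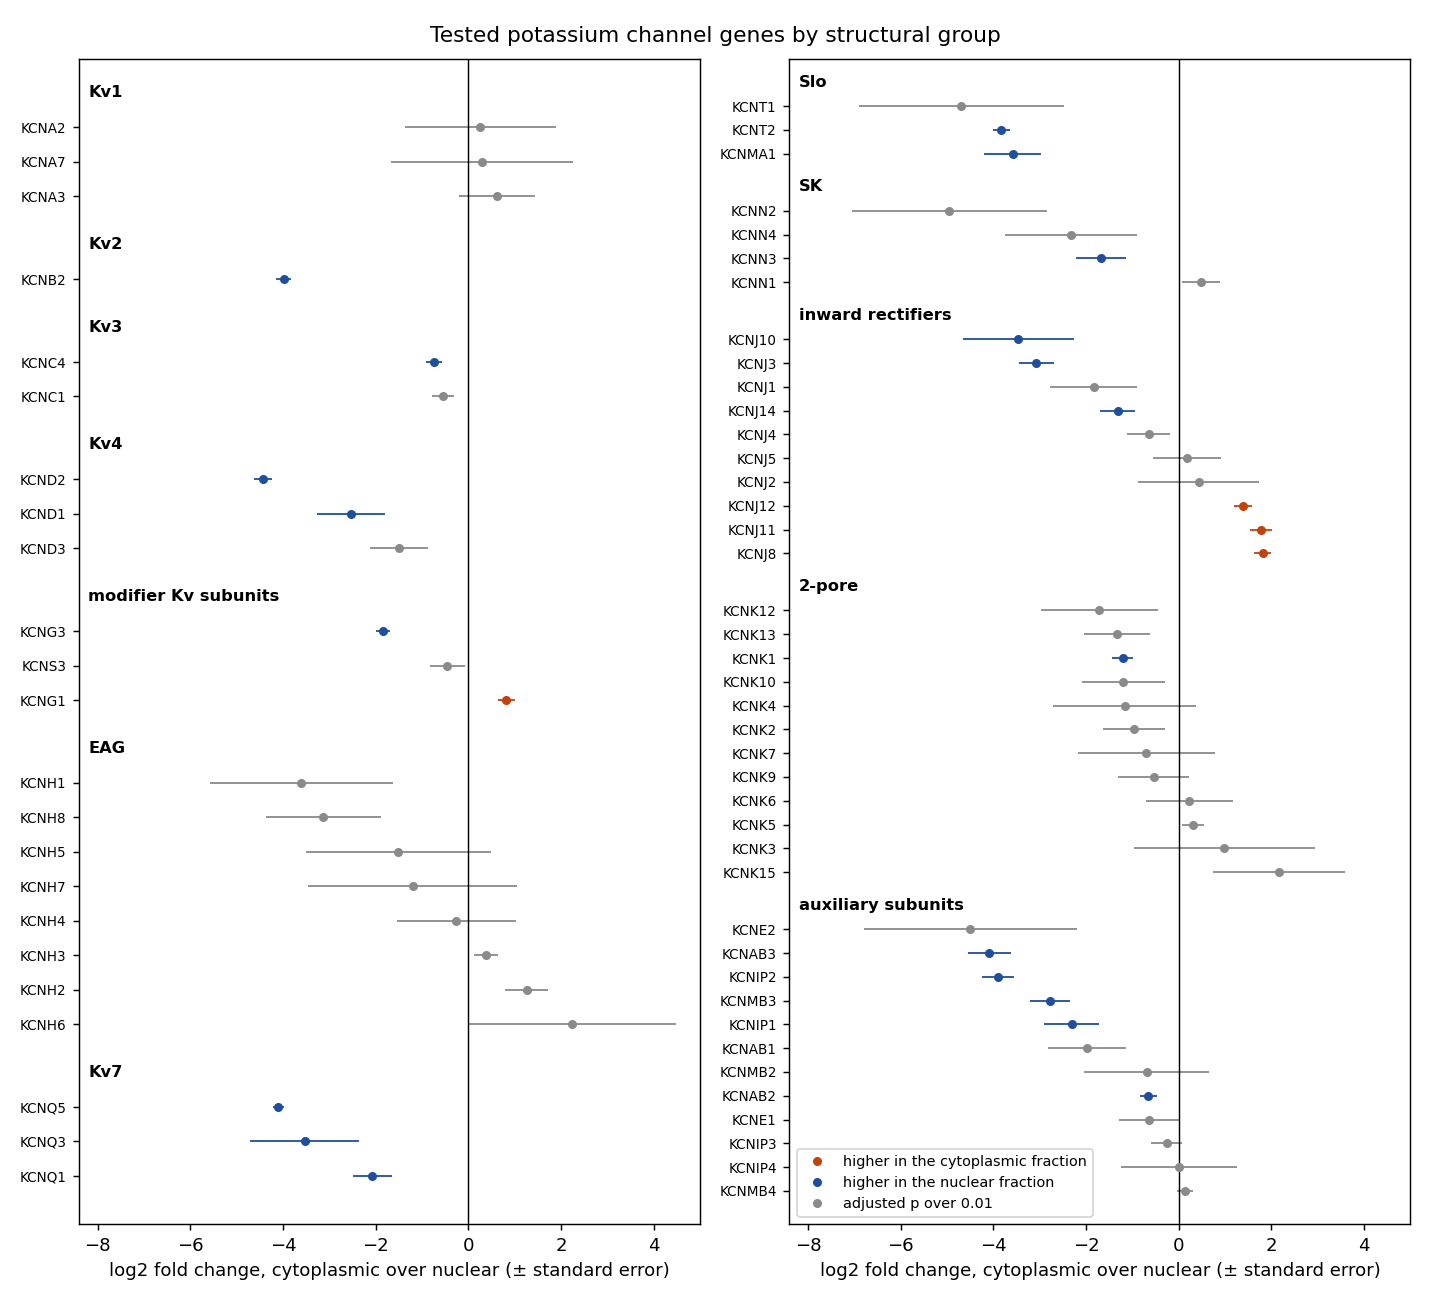
Log2 fold change of cytoplasmic over nuclear (points) with its standard error (bars) for 64 of the 68 tested members, arranged by channel group. The 20 nuclear calls drawn (blue) are spread over 10 groups, the 4 cytoplasmic calls drawn (orange) lie among the inward rectifiers and the modifier subunits, and the 40 others (grey) mostly have wide bars.

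Of the pore genes of the A-type current, 2 of 3 were called nuclear, and of the 4 KCNIP genes for their partners, 2 were, beside 26.5% of all tested genes. KCND2 (ENSG00000184408, chr7:120273175-120750337, plus strand), which carries this fast inactivating current in dendrites, had the largest fold change of the called members. Its normalized counts were 1582 and 1559 in the nuclear and 62.1 and 84.8 in the cytoplasmic libraries, 21.5-fold higher in the nucleus (log2 -4.43, SE 0.20, DESeq2 adjusted p 1.06e-111). KCND1 was at 44.7 and 33.6 against 8.21 and 5.30 (log2 -2.53, SE 0.73, DESeq2 adjusted p 0.00124). KCND3 was at 38.0 and 39.5 against 12.9 and 14.6, and its log2 fold change of -1.50 (SE 0.62) did not pass (DESeq2 adjusted p 0.0288). It passed with equal library totals (-2.16, adjusted p 0.00111 from the DESeq2 standard errors) and with limma on the recovered reads.

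Among the calcium-binding partners of KCND channels, KCNIP2 (chr10:101825974-101843920, minus strand) was at 380 and 311 in the nuclear and 14.1 and 33.1 in the cytoplasmic libraries. The difference was 14.9-fold toward the nucleus (log2 -3.89, SE 0.35, DESeq2 adjusted p 2.45e-28), and the cytoplasmic libraries differed from each other by 80.8%. KCNIP1 was also nuclear, at a log2 fold change of -2.31 (SE 0.60, DESeq2 adjusted p 0.000245). KCNIP3 stood at -0.26 (SE 0.33) and KCNIP4 at 0.01 (SE 1.26), and neither passed.

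KCNAB genes encode cytosolic beta subunits of KCNA channels. KCNAB3 (chr17:7921859-7929856, minus strand) had normalized counts of 181 and 196 in the nuclear and 16.4 and 5.30 in the cytoplasmic libraries, 17-fold higher in the nucleus (log2 -4.09, SE 0.46, DESeq2 adjusted p 4.95e-18). The cytoplasmic values rest on 14 and 4 reads. KCNAB2 was at 643 and 505 against 346 and 383 (log2 -0.66, SE 0.19, DESeq2 adjusted p 0.000956). KCNAB1 at -1.98 (SE 0.84) did not pass the DESeq2 test, but passed with limma on the recovered reads. The KCNA genes themselves gave no call: 2 of the 6 were listed at 0, 1 had too few reads to be tested, and KCNA2, KCNA3 and KCNA7 had means of at most 14.8 and log2 fold changes of 0.25 to 0.62. At an unadjusted p under 0.05 and with limma the number of calls among these 3 was also 0.

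Of the delayed rectifiers, KCNB2 (ENSG00000182674, chr8:72537225-72938349, plus strand) had the second highest mean, 1851. Its normalized counts were 3962 and 3005 in the nuclear and 209.9 and 229 in the cytoplasmic libraries, 15.9-fold higher in the nucleus (log2 -3.99, SE 0.16, DESeq2 adjusted p 7.74e-128). KCNG3 (chr2:42442017-42493982, minus strand), a silent subunit like KCNG1, lay in the opposite direction to it. It was at 1373 and 1242 in the nuclear and 358 and 371 in the cytoplasmic libraries (log2 -1.84, SE 0.15, DESeq2 adjusted p 2.49e-33). KCNS3 was at 88.7 and 76.5 against 64.5 and 55.7, and did not pass (log2 -0.46, SE 0.37).

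KCNC genes encode the channels of fast-spiking neurons. KCNC4 (chr1:110210314-110283100, plus strand) had one of the 6 highest means, with 1232 and 933 in the nuclear and 586 and 713 in the cytoplasmic libraries. The difference was 1.67-fold toward the nucleus (log2 -0.74, SE 0.17, DESeq2 adjusted p 4.65e-05). KCNC1 was at 247 and 219 against 155 and 166, and at -0.54 (SE 0.24) it did not pass (DESeq2 adjusted p 0.0418). It passed with equal library totals (-1.20, adjusted p 1.42e-06 from the DESeq2 standard errors) and in limma with a pseudocount of 5.

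Of the channels that open with intracellular sodium or calcium, 2 of 3 tested KCNM and KCNT pore genes and 1 of 4 KCNN genes were called nuclear. None of these genes was called cytoplasmic (0 at an unadjusted p under 0.05 and 0 with limma). Over all tested genes 26.5% were nuclear and 25.9% cytoplasmic. KCNT2 (ENSG00000162687, chr1:196225779-196609225, minus strand), a sodium-activated channel, had normalized counts of 1474 and 1798 in the nuclear and 132 and 96.7 in the cytoplasmic libraries. It was 14.2-fold higher in the nucleus (log2 -3.83, SE 0.19, DESeq2 adjusted p 1.51e-88). KCNMA1, the pore of the large-conductance calcium-activated channel, was at 87.3 and 77.4 against 4.69 and 9.28 (log2 -3.58, SE 0.61, DESeq2 adjusted p 1.62e-08). Its beta subunit gene KCNMB3 (chr3:179236691-179267002, minus strand) was at 116 and 142 against 17.6 and 19.9 (log2 -2.78, SE 0.43, DESeq2 adjusted p 3.56e-10). Another beta subunit gene, KCNMB4, had 613 and 506 in the nuclear and 567 and 655 in the cytoplasmic libraries, which overlapped (log2 0.13, SE 0.17, DESeq2 adjusted p 0.551). With equal library totals its direction turned and it was called nuclear (-0.54, adjusted p 0.00344). Of the small-conductance channels, KCNN3 was nuclear (log2 -1.68, SE 0.54, DESeq2 adjusted p 0.00358) and KCNN1, KCNN2 and KCNN4 did not pass the DESeq2 test. KCNN1 stood at 0.48, toward the cytoplasm, and at -0.18 with equal library totals.

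The inward rectifiers held calls in both directions, 3 cytoplasmic and 3 nuclear among 10 tested, beside 25.9% and 26.5% of all tested genes. KCNJ3 (chr2:154697855-154858354, plus strand), a channel opened by G proteins in the heart and brain, had normalized counts of 186 and 190.04 in the nuclear and 25.8 and 18.6 in the cytoplasmic libraries. The difference was 8.42-fold toward the nucleus (log2 -3.07, SE 0.38, DESeq2 adjusted p 1.52e-15). KCNJ14 (chr19:48455574-48466980, plus strand) was at 108 and 103 against 39.9 and 45.1 (log2 -1.31, SE 0.38, DESeq2 adjusted p 0.00109). KCNJ10, a channel of glia and of the kidney, had 34 and 20 reads in the nuclear and 0 and 3 in the cytoplasmic libraries. Its nuclear level was 11.4-fold the cytoplasmic one with a counting interval of 3.71 to 57.2 (exact, 95%), at a DESeq2 adjusted p of 0.00742, and limma on the recovered reads did not call it (adjusted p 0.011).

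Few of the 2-pore and ether-a-go-go (KCNH) genes were called, but most of those tested had a mean of at most 50, which limits what could be called. Of all tested genes 26.5% were nuclear and 25.9% cytoplasmic. Of 12 tested 2-pore genes, KCNK1 was nuclear, at 421 and 336 against 154 and 174 (log2 -1.21, SE 0.22, DESeq2 adjusted p 1.98e-07), and 11 did not pass. KCNK5 had 183 and 166 in the nuclear and 229 and 203 in the cytoplasmic libraries, which did not overlap, but the difference did not pass (log2 0.30, SE 0.24). None of the 8 tested KCNH genes was called by DESeq2, and 2 of them had an unadjusted p under 0.05. These were KCNH2, which carries a repolarizing current of the heart, at 22.4 and 29.4 against 61.0 and 62.3 in the cytoplasm (log2 1.25, SE 0.47, DESeq2 adjusted p 0.0151), and KCNH8, with 25 and 17 nuclear and 1 and 2 cytoplasmic reads. With limma on the recovered reads both passed, KCNH2 toward the cytoplasm (adjusted p 0.00415) and KCNH8 toward the nucleus (adjusted p 0.00336).

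Large fitted fold changes of genes with few reads were not precise. KCNN2, KCNT1 and KCNE2 had no read in either cytoplasmic library and 18, 15 and 13 reads in the nuclear ones, as recovered from the mean alone. Against a floor of 3 reads in the deeper cytoplasmic library these genes were at least 1.95-fold, 1.62-fold and 1.41-fold lower there. None passed the DESeq2 test, while all of them passed with limma on the recovered reads. The 18 members with reads but no adjusted p had at most 7 reads over all 4 libraries. They included KCNE1B, a near copy of KCNE1, whose reads are uncertain in the same way as those of KCNJ12. The 8 members listed at 0 were KCNA5, KCNA10, KCNG4, KCNJ16, KCNK16, KCNMB1, KCNS2 and KCNV2. For them, 3 reads in a library is the upper limit that a count of 0 allows, equal to a normalized count of 2.24 in the deeper nuclear and 3.52 in the deeper cytoplasmic library. Other genes, on either strand, cover 100% of the span of KCNMB1 and KCNS2 in the annotation used here, 91.8% of that of KCNJ16 and 76.4% of that of KCNV2, and how much of these genes was countable in the authors' annotation is not known.

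Gene length was compared next, since intronic reads were counted. The tested members had a median span of 66.8 kb, against 34.9 kb for the protein-coding genes. Across the 68 members the Spearman correlation of span with log2 fold change was -0.370, that of intron length -0.377 and that of exonic length -0.108. Over the 29 members with a mean over 50 the correlation with span was -0.325, against -0.708 over 12134 protein-coding genes. These are descriptions across genes, which share the same 4 libraries and are not independent replicates.

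Within classes of span, the medians of the members with a mean over 50 lay below those of the protein-coding genes, which was not tested. At 50 kb or more, 11 of 16 members (68.8%) were nuclear and 1 (6.25%) cytoplasmic, and their median log2 fold change was -1.26. Of the protein-coding genes of that span 61.7% were nuclear and 14.1% cytoplasmic, with a median of -0.80. From 10 to 50 kb, 4 of 12 members were cytoplasmic and 4 nuclear (33.3% each), with a median of 0.34. The protein-coding genes of that span were cytoplasmic for 56.4% and nuclear for 16.0%, with a median of 0.67. Under 10 kb the single member was KCNAB3, at -4.09, where the protein-coding median was 1.97 and 4.71% were nuclear.

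Several members on the nuclear side were short. KCNAB3 spans 7.998 kb, KCNIP2 17.9 kb and KCNMB3 30.3 kb. By contrast KCNS3 spans 484 kb and stood at -0.46. Overlap with other genes on either strand in the annotation used here came to 49.1% of the span of KCNAB3, 16.2% of that of KCNIP2 and 18.6% of that of KCNMB3. Of the exonic bases of these nuclear members, 37.8%, 60.8% and 47.6% were shared, in the same order. For the named cytoplasmic members the overlap of the span was 62.3% for KCNJ11, 32.7% for KCNG1, 16.4% for KCNJ8 and 0% for KCNJ12. Of their exonic bases, 22.9%, 77.2%, 66.5% and 0% were shared, in the same order. The authors removed stretches shared by several genes from their own annotation before counting. Which stretches these were cannot be read from the overlaps given here, since KCNK12 and KCNE2, covered for 100% of their span, still had reads. The part of overlapping genes in these values was not tested.

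Genes whose coding sequence lies in a single exon are frequent among potassium channels, and 11 of the tested members were of this kind. Of these, 2 were cytoplasmic (KCNJ11 and KCNJ12) and 1 nuclear (KCNJ10), with a median log2 fold change of -0.46. Of 13 members with 2 coding exons, 2 were cytoplasmic and 3 nuclear (median -0.40), and of 44 with more, 1 was cytoplasmic (2.27%) and 18 nuclear (40.9%, median -1.40). Of the protein-coding genes with 1 coding exon 53.1% were cytoplasmic and 7.07% nuclear, of those with 2 51.8% and 11.4%, and of those with more 33.5% and 30.8%. Their medians were 1.34, 1.18 and -0.01. Among members with a mean over 50, the medians were 0.47 for 4 genes with 1 coding exon, -1.31 for 5 with 2 and -1.26 for 20 with more, against 1.66, 1.35 and 0.11 for the protein-coding genes.

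**Figure D3:**
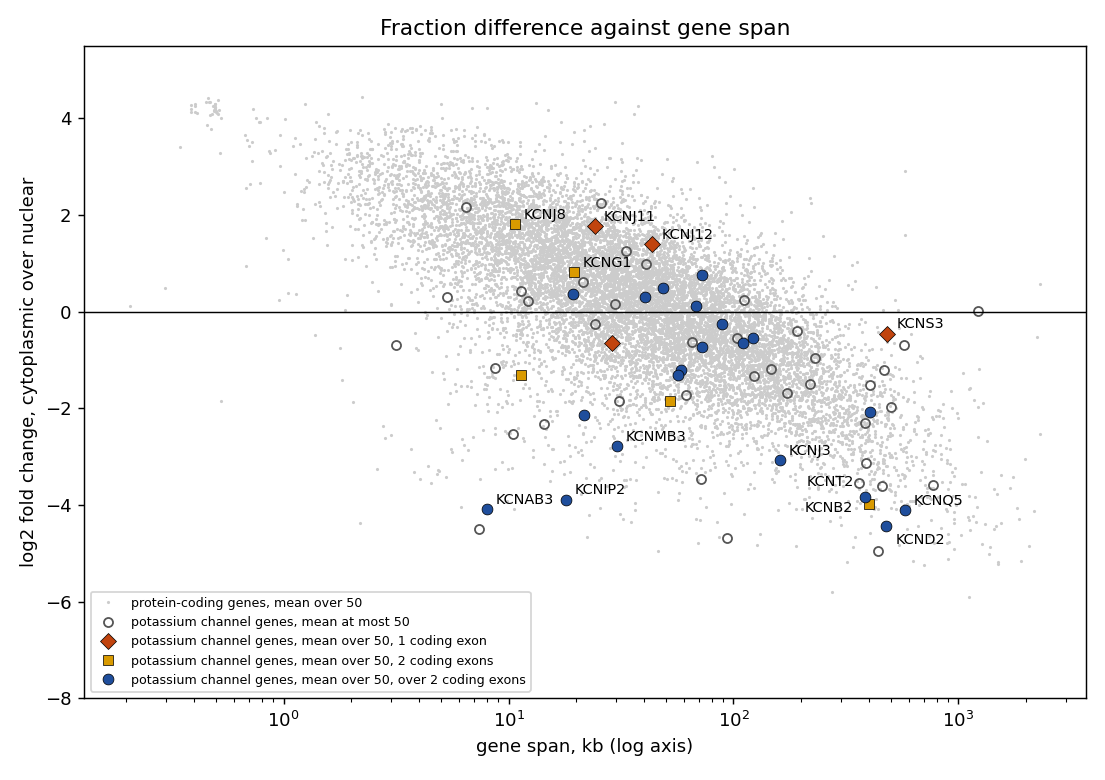
Log2 fold change of cytoplasmic over nuclear (vertical) against gene span in kb (horizontal, log axis) for the tested members, marked by number of coding exons where the mean is over 50, and for 12134 protein-coding genes (grey). KCNAB3 and KCNIP2 lie below most grey genes of like span, and KCNS3 lies above most of them.

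Other genes of potassium transport were taken from a list of 24 channel partners and potassium carriers, of which 21 were tested. Of these, 6 were cytoplasmic (28.6%), 4 nuclear (19.0%) and 11 did not pass, with a median log2 fold change of 0.21. Of all tested genes 25.9% were cytoplasmic and 26.5% nuclear, and of the protein-coding genes 35.6% and 28.4%. The cytoplasmic ones included the calmodulin genes CALM2 (log2 1.21) and CALM3 (3.14), whose product is the calcium sensor of KCNN and KCNQ channels, and ATP1B1 (0.70) and ATP1B3 (0.61) of the sodium pump. The nuclear ones included the potassium chloride cotransporters SLC12A4 (-0.60) and SLC12A7 (-0.52), and ABCC8. With equal library totals 4 of the list were cytoplasmic and 5 nuclear.

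ABCC8 encodes the sulfonylurea receptor that assembles with the KCNJ11 pore. Its nuclear mean was 383 and its cytoplasmic mean 81.7, a log2 fold change of -2.23 (SE 0.25, DESeq2 adjusted p 6.88e-19), while KCNJ11 was at 1.77. ABCC8 spans 84.4 kb and KCNJ11 24.2 kb. The receptor usually paired with KCNJ8, ABCC9, had a mean of 3.22 and did not pass.

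Other ion channel families were set beside the protein-coding genes, of which 28.4% were nuclear and 35.6% cytoplasmic. The 13 tested sodium channel genes gave 4 nuclear calls (30.8%) and none cytoplasmic (0 at an unadjusted p under 0.05 and 0 with limma), with a median log2 fold change of -1.10. The 24 calcium channel genes gave 11 nuclear calls (45.8%) and 1 cytoplasmic (4.17%), with a median of -1.12. The 9 chloride channel genes gave 3 (33.3%) and 1 (11.1%), with a median of -0.72. Of 19 genes with TRP channel symbols, which include TRPC4AP and TRPC5OS, 8 were nuclear (42.1%) and none was cytoplasmic (1 at an unadjusted p under 0.05 and 0 with limma), with a median of -1.05. The medians ran from -1.12 to -0.72, beside -1.18 for the potassium channel genes, and the families were not tested against each other. Their median spans were 119 kb for the sodium, 123 kb for the calcium, 35.97 kb for the chloride and 83.9 kb for the TRP channel genes, against 34.9 kb for the protein-coding genes.

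**Figure D4:**
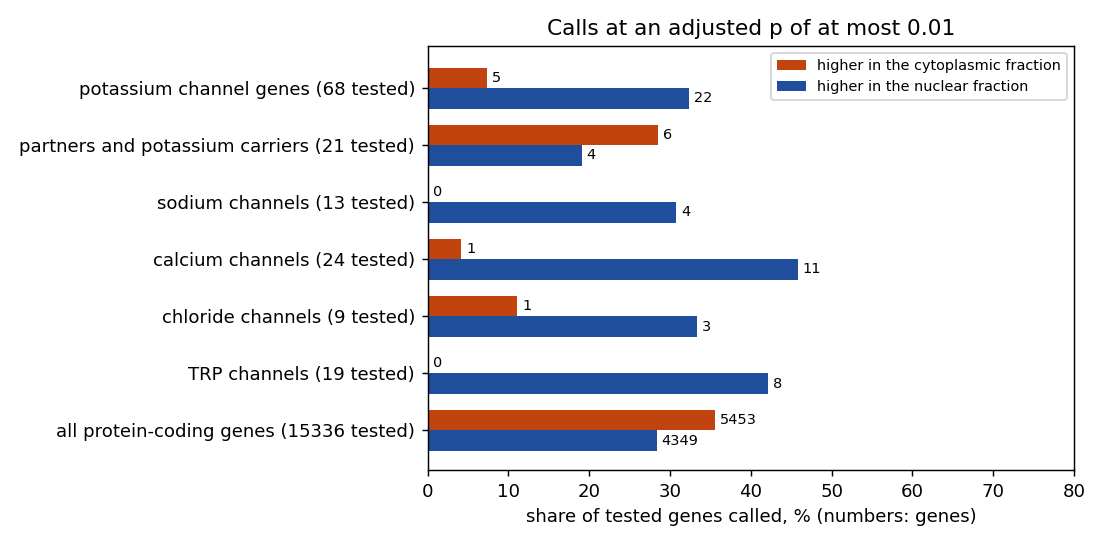
Share of the tested genes called at a DESeq2 adjusted p of at most 0.01 (horizontal, %) in the cytoplasmic (orange) and nuclear direction (blue), with the number of genes at each bar. The 68 potassium channel genes (5 and 22) and the other channel families have shorter cytoplasmic bars than the 15336 protein-coding genes (5453 and 4349).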

How the data were processed

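RNA was isolated from nuclear and cytoplasmic fractions of HEK293T cells. The authors aligned reads to hg38 with STAR, counted them with featureCounts 2.0.2 (minimum overlap 20) over exons and introns of an extended GENCODE annotation, and compared the fractions with DESeq2. The deposited mean normalized count is a signal averaged over 4 libraries; the deposited log2 fold change and its standard error, the Wald score and the p-value and adjusted p-value are the authors' estimates. These comparison columns were used because the file deposited no counts per library.

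The mean is a sum of whole reads, each worth the inverse of 4 times a library's size factor. Whole reads were sought that give both the mean and the fold change (error at most 2e-05). Where the mean was under 50 and only a single set of reads gave it, that set was kept on the mean alone. Reads were found for 17609 of 17689 tested genes with a mean under 1000 (99.5%). The median ratios of these reads lay within 3.74% of the size factors. Of the tested genes, 5644 had a mean of 1000 or more and, apart from the member KCNB2, were not searched. KCNQ5 was among those not searched. For this reason limma 3.58.1 (R 4.3.3, log2 of normalized count + 0.5 with a trend) was run on 17610 genes as an alternative, and the deposited adjusted p stayed the main test. On simulated data the search gave back the reads of 593 of 596 genes, with 0 wrong. The simulated fold changes and standard errors came from the same model that the search inverts. They therefore do not show how closely the deposited values follow that model. In a separate simulation limma called 200 of 200 genes changed 4-fold and 0 of the others among 17610. The changed genes all had a mean over 50 and a single dispersion was used, so this does not show how many changed genes with fewer reads would be called. Intervals and floors cover counting error only.

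Members and lists were chosen with earlier results of these data known. Genes were named by a rule: called members with a mean over 50 with the 12 largest fold changes in each direction, and the 6 highest means; others named were chosen after their values were seen. Spans and exons came from GENCODE 44 on hg38 (all 94 members matched). Some members and listed genes are counted but not reported by name here, and the plots of members by library and by group leave them out.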

Additional observations from a re-analysis of the deposited data

How the results depend on the processing

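The counts of 5 cytoplasmic and 22 nuclear members were within 1.5 times in 20 of 28 alternative counts. There were 3 cytoplasmic calls with equal library totals, with a minimum absolute log2 fold change of 1 and with Bonferroni adjustment, and Bonferroni left 12 nuclear calls, since a stricter rule passes fewer genes. With equal library totals 31 members were nuclear, while the nuclear calls over all 23333 tested genes rose from 6175 to 8930. KCNG1 was among the members that lost their call. Of 36 values of the named genes under another scale, 34 kept direction and call. The other scales, equal totals and centring on the protein-coding median, lower every log2 fold change, by 0.66 and 0.11. For the named nuclear genes this outcome was therefore all but fixed in advance, and only cytoplasmic calls were put to a test. limma on recovered reads gave 6 and 26 calls, and 32 nuclear calls with a pseudocount of 5; of the 26 DESeq2 calls it could test, 25 passed with the same direction, the exception being KCNJ10. Leaving out single libraries with limma gave 0 to 4 cytoplasmic and 0 to 26 nuclear calls. Both zeros came without either nuclear library, when the lone nuclear sample is assumed to vary like the cytoplasmic ones; then 0 of all 17610 genes were called, although 8489 and 8647 had an unadjusted p under 0.05, among them 29 and 27 members. Without the deeper cytoplasmic library KCNAB2, KCNC4, KCNG1 and KCNJ10 lost their call, and the losses without the shallower one included KCNAB2 and KCNC4. No call changed direction in these limma fits. The cause of these losses was not tested.

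The median log2 fold change of -1.18 became -1.85 with equal library totals, -0.74 with a mean over 50 and -0.70 with members at the floor set at their bound. Over the 4 pairs of a nuclear with a cytoplasmic library it ran from -1.21 to -0.88. The Spearman correlation with span of -0.370 was -0.325 with a mean over 50, -0.251 when KCNQ5 was also left out (chosen after the data were seen) and -0.108 for exonic length. The cause of these changes was not tested. The replicate numbers of the recovered libraries are not known, so limma was run with a replicate block under both possible pairings (chosen after the data were seen). It gave 6 cytoplasmic and 29 nuclear calls with the deeper libraries paired and 6 and 33 with the other pairing. The libraries' deviations from their fraction's mean correlated at -0.20 with the deeper libraries paired (8235 genes). With 2 libraries per fraction the other pairing only turns the sign, to 0.20, so this is 1 value and not 2 results. Depth limits most members: 39 of 68 had a mean of at most 50 and a median standard error of 1.24.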
